A study of Mus musculus with 12 samples.

Results

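The cells described here are the lining fibroblasts of mouse joints with *Prg4* and *Clic5*, picked cell by cell out of single-cell RNA sequencing of synovial stromal cells. A cell was counted as one when it had more than 500 and fewer than 5000 detected genes, at least 4 of 7 fibroblast genes (*Gsn*, *Fbln1*, *Lum*, *Dcn*, *Pdpn*, *Pdgfra* and *Serpinf1*), at least 2 *Prg4* molecules, and at least 2 of the 4 lining markers *Clic5*, *Tspan15*, *Htra4* and *Itga6*. This gave 638 cells of the 16430 that had the fibroblast genes, of 20213 within the gene limits and of 21042 deposited. The other 15792 cells with the fibroblast genes are called the other fibroblasts below.

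The synovial lining is the thin cell layer that faces the joint cavity, built of macrophages and of fibroblasts without a basement membrane beneath them. Its fibroblasts secrete lubricin, the product of *Prg4*, and hyaluronan, which together make synovial fluid slippery, while the fibroblasts of the sublining beneath carry *Thy1* and lay down collagen around vessels. In inflammatory arthritis the lining thickens, and lining fibroblasts are known as a source of enzymes and cytokines that damage cartilage.

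The animals were wild-type male C57BL/6 mice of 8 to 10 weeks. Arthritis was induced with 100 µl of K/BxN serum into a vein, a transfer of arthritogenic antibodies that gives a self-limiting disease (serum transfer-induced arthritis). Of the 4 labels, rest stood for day 0 without serum and peak for day 7 to 9 after it, while the resolving libraries came from day 15 and the resolved ones from day 22. Each label had 3 libraries, and each library pooled the joint cells of 3 animals after a collagenase digest and a sort of live CD45-negative cells. All mice were of one genotype, so no gene was targeted.

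The libraries did not group by their labels. Each cell barcode ends in a suffix from 1 to 12, and each suffix belonged to 1 library. Suffixes 1 to 3 were rest 1, peak 1 and resolving 1; suffixes 4 to 6 were resolved 1, rest 2 and peak 2; suffixes 7 to 9 were resolving 2, resolved 2 and rest 3; suffixes 10 to 12 were peak 3, resolving 3 and resolved 3. Over the summed lining cells of each library, the library most alike came from the same run of 3 suffixes for 9 of 12 libraries and from the same label for 0 of 12, across 5783 genes. Both splits are therefore given below, with the values of a run always in suffix order. Whether each library carries the label of its animals could not be checked from these data, so values by label hold only as far as the labels do. A run holds libraries of 3 labels, no condition was read from it, and what else the libraries of a run share cannot be told apart. The libraries shared 0 of 21042 barcodes, and the lining cells of a library summed to 217372 molecules (peak 2) to 1057659 (resolving 3). A molecule is a unique molecular identifier (UMI), and levels (CPM) are UMIs per 1000000 of the summed cells of 1 library.

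*Prg4* was abundant in most of the chosen cells and barely present in some. A lining cell held a median of 513 *Prg4* UMIs (quartiles 195.75 and 1179.5, range 2 to 5966), which was a median of 6.42% of all its UMIs and at most 27.1%. Of the 638 cells, 36 (5.64%) held fewer than 10 *Prg4* UMIs, 66 (10.3%) held 10 to 99, 346 (54.2%) held 100 to 999 and 190 (29.8%) held 1000 or more. *Prg4* lies on chromosome 1 on the minus strand (chr1:150449412-150466165, GRCm38, GENCODE M21). Lining cells carried between 18.3% (peak 2) and 81.6% (rest 1) of a library's *Prg4* UMIs. *Prg4* molecules were also found outside them, since 76.3% of the other fibroblasts and 45.2% of endothelial cells, which should lack the gene, had at least 1.

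The marker genes that the rule used with *Prg4* separated the cells from other fibroblasts, by construction. *Clic5*, a chloride intracellular channel family protein tied to the actin cortex (chr17:44188584-44280172, plus strand), was detected in 87.3% of lining cells and 1.43% of other fibroblasts. *Tspan15*, a tetraspanin that guides the sheddase ADAM10 (chr10:62185396-62231251, minus strand), was detected in 88.1% and 2.1%. *Itga6*, the laminin-binding integrin alpha 6 (chr2:71745616-71858416, plus strand), was detected in 52.4% and 3.16%. *Htra4*, a secreted serine protease (chr8:25024929-25038962, minus strand), was detected in 42.0% and 0.84%. Of these, *Htra4* was near background in endothelial cells (0.28%), whereas *Clic5* (33.5%), *Tspan15* (32.4%) and *Itga6* (44.2%) were not, at a median of 3098.5 UMIs per endothelial cell against 9686 per lining cell. At an equal depth of 2000 UMIs per cell, where 4 shallower lining cells were left out, *Clic5* was detected in 55.1% of lining cells and 0.62% of other fibroblasts, and *Htra4* in 12.5% and 0.31%.

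Near the border the cells were few or mixed. Of the lining cells, 313 (49.1%) had exactly 2 of the 4 markers, 205 (32.1%) had 3 and 120 (18.8%) had all 4. The 313 cells with 2 markers held a median of 328 *Prg4* UMIs (quartiles 103 and 757), and the 818 cells just outside with 1 marker held a median of 18 (quartiles 5 and 92.5). Exactly 2 *Prg4* UMIs were held by 13 lining cells, and 14 cells just outside held 1. With 4 of the 7 fibroblast genes, 203 lining cells were just inside, and 132 cells with 3 were just outside.

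Genes of other cell types were detected in part of the lining cells. Lining cells held more UMIs (median 9686 against 5839.5 in other fibroblasts), and the shares of cells below are not matched for depth. At least 2 immune genes were detected in 7 cells (1.10%), and *Ptprc* (CD45), *C1qb* and *Adgre1* summed to 0 in the lining cells of every run. At least 2 endothelial genes were detected in 38 cells (5.96%, against 1.53% of other fibroblasts) and at least 2 perivascular genes in 225 (35.3%, against 6.48%). Of the other lists, at least 2 osteoblast genes were detected in 337 lining cells (52.8%, against 23.1%), where *Bglap* and *Bglap2*, the osteocalcin genes, had a UMI in 48.6% and 60.5% of lining cells and in 16% and 15.9% of other fibroblasts. By summed level *Bglap* was lower in lining cells in 12 of 12 libraries (197 against 832 CPM), and *Bglap2* was higher in 4 of 12 (499 against 730 CPM). At least 2 erythroid genes were met in 64.4% of lining cells (47.5% of others), 2 muscle genes in 6.58% (1.68%) and 2 Schwann genes in 1.72% (0.589%). Chondrocyte genes went the other way, with at least 2 in 29.6% of lining cells and 53.6% of other fibroblasts, and so did tenocyte genes (14.6% and 43.2%). A set of 45 cells carried at least 2 endothelial or at least 4 perivascular genes, held a median of 6 *Prg4* UMIs, and included 25 of the 36 cells with fewer than 10. They ranged from 0 cells in peak 1 to 11 in resolved 2, and counts without them are given below. The 5 sublining markers *Cd34*, *Thy1*, *Pi16*, *Dpp4* and *Col14a1* were less often met: 318 lining cells (49.8%) had none of them, against 3113 (19.7%) of the other fibroblasts.

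Beyond the genes of the rule, the lining cells held a program of their own relative to other fibroblasts of the same library. The rule chose the cells from this same contrast, so the ratios describe the cells and carry no test. Of 2890 genes with a mean of at least 50 CPM in either set, 73 were more than 2-fold higher in lining cells in every one of the 12 libraries and 130 more than 2-fold lower. Ratios are log2 of lining over other fibroblast CPM, each with 5 CPM added, as mean ± SD over 12 libraries. The highest were *Clic5* and *Tspan15* themselves, at 5.86 ± 0.39 and 4.95 ± 0.40. Next came *F13a1*, the transglutaminase that cross-links fibrin (4.87 ± 0.45, 941 against 28.3 CPM). *Col22a1*, a collagen of tissue junctions, followed *Prg4* at 4.52 ± 0.34 (416 against 13.6 CPM). Also among the 10 highest were *Rab37*, a small GTPase of secretory vesicles (4.02 ± 0.47), *Pla1a*, a phosphatidylserine-specific phospholipase (3.80 ± 0.89), *Pcsk6*, a proprotein convertase (3.64 ± 0.38), and *Gchfr*, the feedback regulator of tetrahydrobiopterin synthesis (3.60 ± 0.42). The plot of the highest and lowest ratios shows the spread over libraries.

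**Figure D1:**
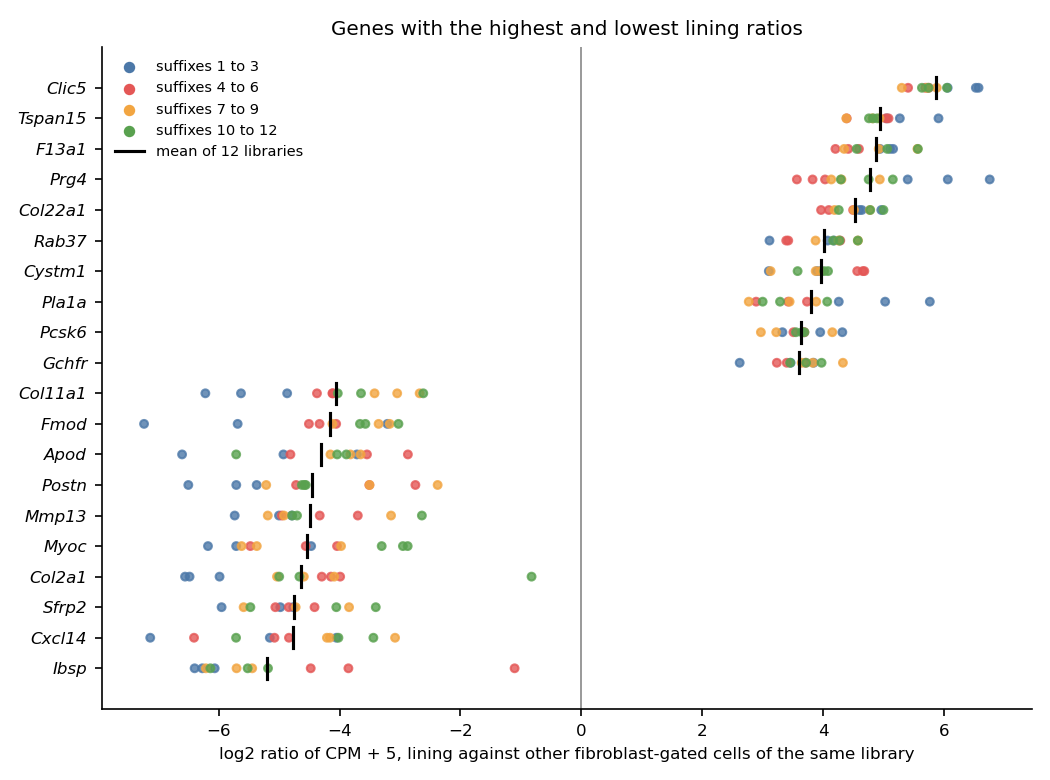
Each point is 1 library's log2 ratio of the level in lining cells over that in other fibroblasts (CPM with 5 CPM added), coloured by run of suffixes. Shown are the 10 genes with the highest and the 10 with the lowest mean ratio, and black bars mark the mean over 12 libraries. Every point of the upper genes lies above 0 and every point of the lower genes below it, which the choice of genes fixes; the mean runs from 5.86 for *Clic5* to -5.20 for *Ibsp*.

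Genes known from the lining in general stood on both sides. *Hbegf*, an EGF-family growth factor, was at 1730 CPM in lining cells and 156 in other fibroblasts, with a UMI in 89.2% and 31.0% of cells. *Has1*, a hyaluronan synthase, was at 1752 and 454 CPM, *Cd55*, a complement-decay factor used to stain the lining, at 438 and 79.7, and *Fn1*, fibronectin, at 10390 and 1993. *Cdh11*, the cadherin that holds lining fibroblasts together, was lower in lining cells in 12 of 12 libraries (11.9 against 78.3 CPM, detected in 6.74% and 28.4% of cells), and so were *Vcam1*, an adhesion molecule (38.4 against 103.5 CPM), and *Fap*, a fibroblast protease (55.0 against 137 CPM). *Dcn*, the small proteoglycan decorin, was lower, at 6948 against 16510 CPM.

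The 10 lowest ratios included genes of mineralised tissue, cartilage and matrix. *Ibsp*, bone sialoprotein, had the lowest ratio (-5.20 ± 1.5), and *Col2a1*, the main cartilage collagen, was at -4.64 ± 1.5. *Cxcl14* (-4.77 ± 1.20), a chemokine of resting tissue, *Sfrp2* (-4.76 ± 0.74), a secreted Wnt modulator, and *Postn* (-4.45 ± 1.22), the matricellular protein periostin, were also among the 10 lowest. *Thy1* was lower in 12 of 12 libraries (-2.38 on the same scale; 44.1 against 159 CPM), and *Col1a1* stood at 1467 against 9829 CPM. *Hk2*, the hexokinase at the centre of the study, which starts glycolysis and can sit on mitochondria, was lower in lining cells in 12 of 12 libraries (113 against 184 CPM, -0.65). *Cxcl1*, a neutrophil-attracting chemokine, was higher in 6 of 12 (-0.15).

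Lining cells made up a few percent of the fibroblasts in every library. Their share was 3.91%, 2.18% and 3.19% in the rest libraries, 3.56%, 1.87% and 3.89% at peak, 3.34%, 4.40% and 7.88% at resolving and 3.01%, 3.46% and 7.31% at resolved, in replicate order. The ranges of the labels overlapped, and under the rule as stated the largest shares were those of resolving 3 and resolved 3. The means were 3.09% ± 0.866 (SD, n = 3) at rest, 3.11% ± 1.08 at peak, 5.21% ± 2.37 at resolving and 4.6% ± 2.36 at resolved. Against rest, the exact permutation p (both sides) was 1 for peak, 0.2 for resolving and 0.5 for resolved, where 3 against 3 libraries cannot go below 0.1. Without resolving 3 the difference of resolving from rest was 0.779 percentage points, and without resolved 3 that of resolved was 0.145. By run, the mean share was 3.60% ± 0.283 for suffixes 1 to 3, 2.36% ± 0.591 for 4 to 6, 3.69% ± 0.633 for 7 to 9 and 6.36% ± 2.16 for 10 to 12. The rule needs several genes to be detected, and the order of the libraries changed with depth per cell. When cells were thinned to 2000 UMIs before the rule, the mean share by run was 0.643%, 0.463%, 0.993% and 0.934% in suffix order, and resolving 2 (1.14%) lay above resolving 3 (0.962%). The differences from rest were then 0.383 points at resolving and 0.457 at resolved (exact permutation p = 0.2 each). With at least 3 of the 4 markers the means by run were 2.70%, 0.675%, 1.26% and 3.85%. All are shares of the cells recovered after digestion and sorting.

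Depth and *Prg4* moved with the runs. The median lining cell held 12384 UMIs on average over the libraries of suffixes 1 to 3, 7779 over 4 to 6, 6376 over 7 to 9 and 11272 over 10 to 12. *Prg4* took 13.4%, 10.4% and 12.3% of lining UMIs in suffixes 1 to 3, 7.28%, 4.64% and 6.30% in 4 to 6, 4.36%, 5.99% and 3.72% in 7 to 9, and 7.00%, 11.7% and 5.86% in 10 to 12. It was higher in each library of suffixes 1 to 3 than in any of suffixes 4 to 9, and suffix 11 overlapped with the first run. *Clic5* stood at 844, 730 and 553 CPM in the first run and between 283 and 531 in the other 9 libraries. Both genes chose the cells, so these are given without a test.

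**Figure D2:**
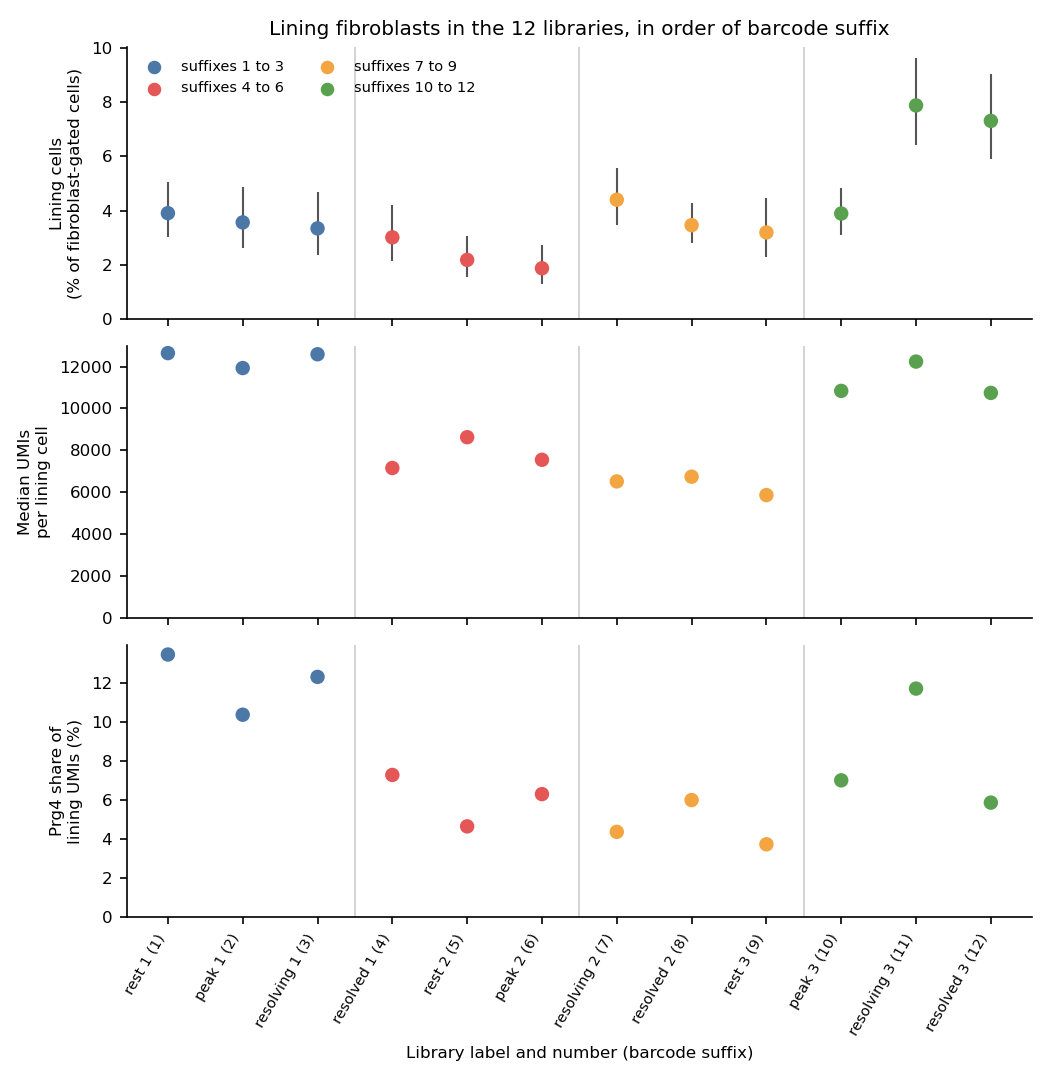
The 12 libraries stand in order of barcode suffix, coloured by run of suffixes, with their labels on the axis. The panels plot the lining cells as a percent of fibroblasts with the 95% Wilson interval, the median UMIs per lining cell, and *Prg4* as a percent of all lining UMIs. The share is highest in resolving 3 (7.88%) and resolved 3 (7.31%), and *Prg4* takes its largest shares, up to 13.4%, in suffixes 1 to 3.

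No gene of the lining cells passed the test between serum-treated and rest libraries. Over 5783 genes tested on the summed UMIs with the quasi-likelihood test of edgeR, 0 genes passed at peak, resolving or resolved (0% each; adjusted p below 0.05 and a log2 fold change beyond 0.5), and the lowest adjusted p was 0.9998, 0.9998 and 0.9999. At an unadjusted p below 0.05 there were 88, 112 and 79 genes, and DESeq2 called 0 each time. Whether the response to a label differed between lining and other fibroblasts was tested too, and 0 of 12159 genes passed in each of the 3 comparisons (359, 357 and 364 at an unadjusted p below 0.05, and 0 by DESeq2). The spread within a label was wide, as the single genes show.

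Genes that the study followed are given for each label. *Hk2* was 91.6 ± 15.3 CPM at rest, 116 ± 39.3 at peak, 123 ± 34.0 at resolving and 121 ± 58.0 at resolved (SD, n = 3 each). Its log2 fold change at peak was 0.39 with a standard error (SE) of 0.38 and an edgeR adjusted p of 0.9998. *Cxcl1* was 1362 ± 374, 1494 ± 460, 1767 ± 1072 and 2583 ± 1123 CPM. *Timp1*, an inhibitor of matrix metalloproteinases, was 2271 ± 2187 CPM at rest and 2097 ± 2653 at peak, and *Col1a1* 1796 ± 1484 and 803 ± 697. For both, the SD of a label was close to its mean.

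Between runs the lining cells differed widely. An F-test across the 4 runs passed for 962 of the 5783 genes (16.6%). Against suffixes 1 to 3, 726 genes passed in suffixes 4 to 6 (12.6%), with 357 higher (6.17%) and 369 lower (6.38%); 386 passed in suffixes 7 to 9 (6.67%), with 218 higher (3.77%) and 168 lower (2.91%); and 23 passed in suffixes 10 to 12 (0.398%), with 16 higher (0.277%) and 7 lower (0.121%). These 3 comparisons share the first run as their base. The first 2 of them had 137 higher genes in common (38.4% of those of suffixes 4 to 6 and 62.8% of those of 7 to 9) and 121 lower genes (32.8% and 72.0%). Over all 5783 genes, the median log2 fold change was 0.004 in suffixes 4 to 6, -0.012 in 7 to 9 and -0.007 in 10 to 12. The lists of genes below are read against these values. The edgeR p-values measure only the spread between libraries within runs of 3, estimated over all 12 libraries together. The split by run was taken up because earlier results of these data showed libraries alike by run. Counts and p-values of the run tests therefore describe that split and are no independent evidence that runs differ.

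**Figure D3:**
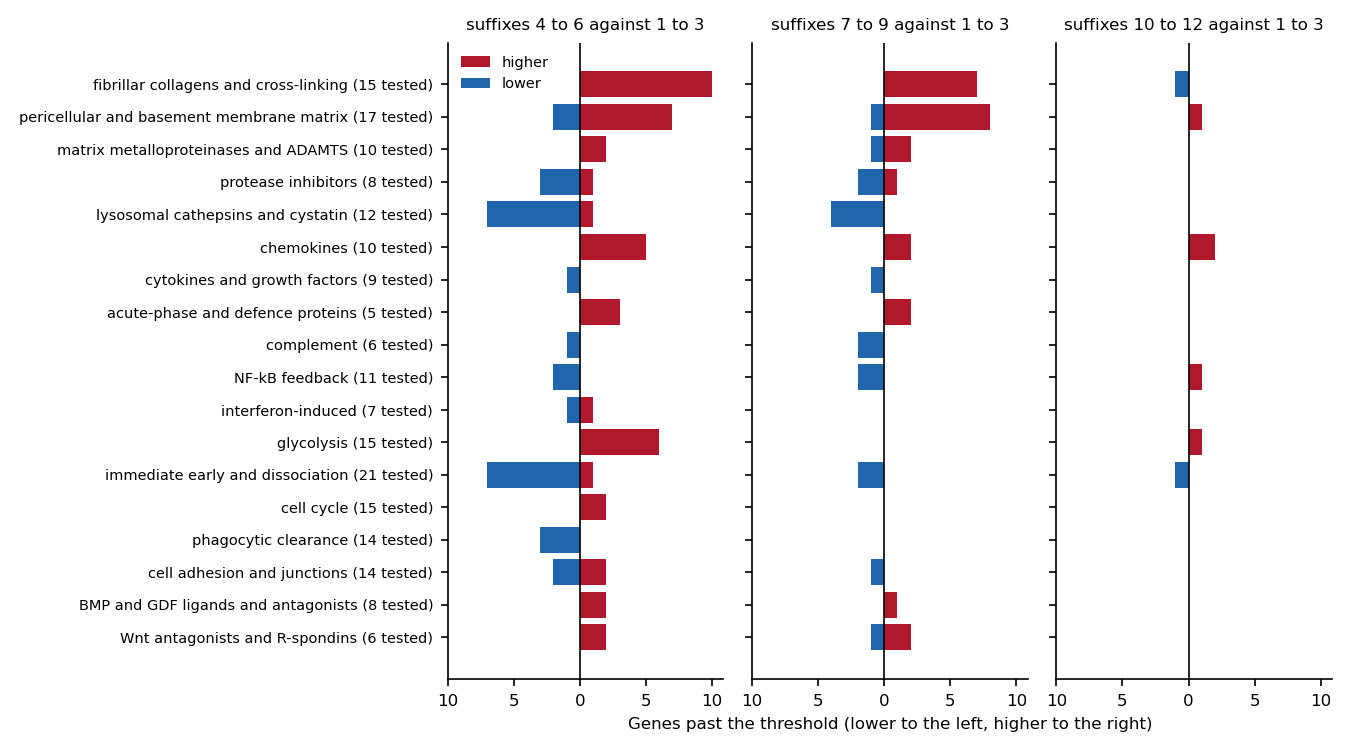
For each gene list, the bars count the tested members that passed the edgeR test upward and downward in suffixes 4 to 6, 7 to 9 and 10 to 12 against suffixes 1 to 3. Fibrillar collagens passed upward for 10 and 7 of 15 in the first 2 comparisons and lysosomal genes downward for 7 and 4 of 12, while few members of any list passed in suffixes 10 to 12.

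Many collagen genes were higher in suffixes 4 to 6 and 7 to 9. Of 15 fibrillar collagens and cross-linking enzymes tested, 10 rose and 0 fell in suffixes 4 to 6 (median log2 fold change 0.80), 7 rose and 0 fell in 7 to 9 (median 1.15), and 1, *Col2a1*, fell in 10 to 12 (median 0.19). *Col3a1*, collagen III, was at 426, 347 and 874 CPM in suffixes 1 to 3, at 2390, 2675 and 2834 in 4 to 6, at 3314, 5066 and 4247 in 7 to 9 and at 615, 701 and 709 in 10 to 12. All 6 libraries of the middle runs lay above the other 6. The log2 fold change was 2.16 (SE 0.26, edgeR adjusted p = 6.06e-05) in suffixes 4 to 6 and 2.85 (SE 0.26, adjusted p = 8.7e-06) in 7 to 9. *Col5a3*, a chain of the fibril-nucleating collagen V, was at 34.4, 26 and 41.6 CPM in the first run, 178, 235 and 276 in the second, 232, 238 and 292 in the third and 32.6, 52.0 and 73.6 in the fourth. It rose by 2.63 (SE 0.28) and 2.78 (SE 0.27), and the other chains *Col5a1* (1.75 and 2.16) and *Col5a2* (2.11 and 2.66) rose in the same pair of runs. In other fibroblasts *Col3a1* averaged 4444 CPM in suffixes 1 to 3, 8719 in 4 to 6, 10350 in 7 to 9 and 4025 in 10 to 12, so it was also higher there, and the part of that RNA in the lining values was not tested.

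The pericellular and basement membrane list behaved in part alike. Of 17 members, 7 rose and 2 fell in suffixes 4 to 6 (median 0.71), 8 rose and 1 fell in 7 to 9 (median 1.56), and 1 rose in 10 to 12 (median 0.16). *Tnc*, tenascin-C, a matrix protein of injured tissue, was at 12.9, 26 and 22.0 CPM in suffixes 1 to 3, 323, 244 and 262 in 4 to 6, 119, 151 and 213 in 7 to 9 and 86.8, 58.6 and 134 in 10 to 12. Each of the 9 later libraries lay above the first 3, with log2 fold changes of 3.71 (SE 0.34), 2.88 (SE 0.35) and 2.24 (SE 0.35) and edgeR adjusted p of 8.43e-06, 8.96e-05 and 0.00626. Without rest 1 the last was 1.94 with an adjusted p of 0.059, after thinning to 2000 UMIs 1.86 with 0.0637, and without the cells that carried other markers 1.61 with 0.35. *Col6a3*, which links the pericellular net to cells, rose by 1.74 (SE 0.32) and 2.47 (SE 0.31) in the middle runs, and *Lamb1*, a laminin chain, by 2.17 (SE 0.29) in suffixes 4 to 6.

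Fibronectin went the other way. *Fn1* was at 11920, 11480 and 9530 CPM in suffixes 1 to 3 and at 6520, 5456 and 5129 in 4 to 6, without overlap. It fell by 1.05 on the log2 scale (SE 0.14, edgeR adjusted p = 0.000163). The 9712, 8877 and 8773 CPM of suffixes 7 to 9 gave -0.37 (adjusted p = 0.137), and *Lamb2*, another laminin chain, fell by 1.29 (SE 0.29) in suffixes 4 to 6 (159, 212 and 164 against 79.8, 103 and 46.0 CPM).

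Among enzymes and their inhibitors, *Timp1* was the clearest difference. It was at 358, 440 and 756 CPM in suffixes 1 to 3, at 4584, 4656 and 5157 in 4 to 6, at 1919, 1983 and 1798 in 7 to 9 and at 695, 525 and 617 in 10 to 12. The values of the second run lay above those of the third, and those above all others. The log2 fold change was 3.11 (SE 0.21, edgeR adjusted p = 5.09e-07) in suffixes 4 to 6 and 1.79 (SE 0.20, adjusted p = 6.31e-05) in 7 to 9. *Timp2*, a close relative that also helps activate MMP2, fell: 383, 379 and 387 CPM in the first run against 149, 145 and 138 in suffixes 4 to 6 (-1.52, SE 0.15, adjusted p = 1.85e-05). In the list of 8 protease inhibitors 1 rose and 3 fell in suffixes 4 to 6 (median -0.12), and 1 rose and 2 fell in 7 to 9 (median -0.35). *Serping1*, the C1 inhibitor of complement, was at 1755, 1721 and 1794 CPM and fell to 802, 598 and 557 in 4 to 6 (-1.54, SE 0.25). *Serpine2*, an inhibitor of thrombin and urokinase, fell by 1.32 (SE 0.23) and 1.30 (SE 0.22) in the middle runs. Of 10 matrix metalloproteinase and ADAMTS genes, 2 rose in suffixes 4 to 6 (median 0.68), and 2 rose and 1 fell in 7 to 9 (median 0.85). *Mmp19* was one of the 2 in both, at 2.11 (SE 0.45) and 2.25 (SE 0.42).

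Several lysosomal genes, which encode proteases that break down matrix inside and outside cells, were lower in the middle runs. Of 12 cathepsins and cystatin, 1 rose and 7 fell in suffixes 4 to 6 (median -0.85), 0 rose and 4 fell in 7 to 9 (median -0.37), and 0 passed in 10 to 12 (median -0.31). *Ctsl*, cathepsin L, was at 1983, 2278 and 1910 CPM in suffixes 1 to 3, 1088, 1045 and 1030 in 4 to 6, 1287, 894 and 802 in 7 to 9 and 1784, 1365 and 1263 in 10 to 12. Every later library lay below the first 3, by 1.07 (SE 0.18, edgeR adjusted p = 0.000783) in suffixes 4 to 6 and 1.14 (SE 0.18, adjusted p = 0.0008) in 7 to 9 on the log2 scale. The one that rose was *Cstb*, a cystatin that inhibits these proteases. *Ctsd*, cathepsin D, fell by 1.08 (SE 0.16) and *Cst3*, cystatin C, by 1.45 (SE 0.23) in suffixes 4 to 6.

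Hyaluronan genes split. *Tnfaip6* encodes TSG-6, which moves heavy chains onto hyaluronan. It was at 490, 451 and 534 CPM in suffixes 1 to 3, 3554, 2897 and 1909 in 4 to 6, 1261, 808 and 974 in 7 to 9 and 1886, 1924 and 2375 in 10 to 12, with each later library above the first 3. The log2 fold change was 2.40 (SE 0.22, edgeR adjusted p = 7.77e-06) in suffixes 4 to 6 and 2.07 (SE 0.21, adjusted p = 0.0002) in 10 to 12. In 7 to 9 it was 0.95 (SE 0.21, adjusted p = 0.0114), and 0.89 (adjusted p = 0.0551) without peak 1 or 0.74 (adjusted p = 0.0651) without resolving 2. Without cells that carried at least 2 immune, endothelial or chondrocyte genes, *Tnfaip6* stood at 0.51 (adjusted p = 0.663) in 7 to 9 and 1.59 (adjusted p = 0.218) in 10 to 12. With at least 3 markers it stood at 1.71 in 4 to 6, where resolved 1 was the only library left. *Has1* was at 2684, 2575 and 1031 CPM in the first run, with resolving 1 apart, and at 1193, 564 and 943 in suffixes 7 to 9. Its difference there of -1.32 (SE 0.30, adjusted p = 0.0121) did not pass without rest 1 (-1.10), peak 1 (-1.15) or resolved 2 (-1.06). Of the 7 genes of the lubrication list, 2 rose and 1 fell in 4 to 6, 1 rose and 3 fell in 7 to 9 and 1 rose in 10 to 12, with medians of -0.09, 0.29 and 0.28. *Prg4*, which chose the cells, is counted among those that fell in both.

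Some chemokine genes rose in each of the later runs. Of 10 tested, 5 rose and 0 fell in suffixes 4 to 6 (median 1.47), 2 rose in 7 to 9 (median 1.20) and 2 rose in 10 to 12 (median 0.91), and the medians stay the same with *Cxcl3* at the bound given below. *Cxcl3*, a neutrophil chemokine, had 0 UMIs in suffixes 1 to 3, which allows up to 1.91 CPM over the 3 libraries together (3 counts). It was at 167, 148 and 50.6 CPM in 4 to 6 and 109, 53.5 and 26.6 in 7 to 9, which is at least 66.9-fold and 36.0-fold higher over pooled UMIs (edgeR adjusted p = 0.000745 and 0.00492). *Cxcl5* had 1 UMI in the first run and 348, 103 and 36.8 CPM in suffixes 4 to 6 (adjusted p = 0.000172), and 1 cell held 49% of its UMIs there. The pooled ratio was 265 with a 95% counting interval of 46.8 to 10550. *Ccl9*, a chemokine for myeloid cells, rose by 2.88 (SE 0.61) in suffixes 4 to 6. *Cxcl1* was at 936, 1298 and 536 CPM in the first run and 2019, 2489 and 3764 in suffixes 10 to 12, without overlap (1.58, SE 0.31, adjusted p = 0.0406). That call was lost when any of rest 1, rest 2, rest 3, resolving 1, resolving 3 or resolved 3 was left out (adjusted p 0.0579 to 0.213). *Cxcl2* passed in suffixes 4 to 6 and 10 to 12, but neither call was stable. In 4 to 6 it was lost without rest 2, rest 3, peak 1, peak 2, resolving 1 or resolved 1 (edgeR adjusted p 0.0552 to 0.126). In 10 to 12 it was lost on leaving out any library except rest 1, peak 3 or resolved 2 (edgeR adjusted p 0.0557 to 0.213). The genes *Cxcl1*, *Cxcl2* and *Cxcl3* are close copies, and reads shared between them could have been split.

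Promoters are shown for genes above and below whose window held a match to the NF-kB motif and that passed in a run comparison, out of the lists of chemokines, cytokines, acute-phase proteins and NF-kB feedback genes. NF-kB is the transcription factor that carries signals of interleukin-1 and tumor necrosis factor to the genome. The letters searched were GGGA, any base, then TTTCC, on both strands of 250 bases before the start of each gene (RefSeq, GRCm38.p6), with no overlap between matches. Of 73 genes in the 4 lists, 53 had a window, and 7 of the 53 held the motif (*Cxcl1*, *Cxcl2*, *Cxcl3*, *Il6*, *Csf1*, *Nfkbia* and *Nfkb2*), and 0.356% of all 32851 windows held it. The first count is of genes and the second of windows, since a gene can have several. *Il6*, *Nfkbia* and *Nfkb2* did not pass in any run comparison and are not printed. The 160 bases before the start are printed 5′ to 3′ on the gene's strand with the match in capitals, for the 3 chemokine genes and for *Csf1*, which fell.
Cxcl1 (chr5:90891085-90891244, plus strand): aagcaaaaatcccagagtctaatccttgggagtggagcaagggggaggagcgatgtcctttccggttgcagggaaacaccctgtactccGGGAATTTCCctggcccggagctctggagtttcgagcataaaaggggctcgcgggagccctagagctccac
Cxcl2 (chr5:90903739-90903898, plus strand): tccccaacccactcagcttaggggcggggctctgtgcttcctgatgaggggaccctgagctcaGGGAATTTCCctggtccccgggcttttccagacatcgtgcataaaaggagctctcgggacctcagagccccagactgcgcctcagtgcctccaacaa
Cxcl3 (chr5:90785941-90786100, plus strand): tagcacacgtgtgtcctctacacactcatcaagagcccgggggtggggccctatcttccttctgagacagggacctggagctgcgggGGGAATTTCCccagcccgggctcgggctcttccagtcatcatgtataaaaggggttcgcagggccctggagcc
Csf1 (chr3:107760470-107760629, minus strand): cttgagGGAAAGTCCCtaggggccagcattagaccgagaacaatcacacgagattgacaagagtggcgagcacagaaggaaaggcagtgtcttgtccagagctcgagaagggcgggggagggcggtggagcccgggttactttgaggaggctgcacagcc
The 3 chemokine genes carried the same 10 letters, and the match started 71 bases before the start of *Cxcl1*, 97 before *Cxcl2* and 73 before *Cxcl3*, while that of *Csf1* lay 154 bases before its start on the other strand. A match describes these letters and is no sign of binding.

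Cytokines and receptors moved in both directions. *Csf1*, the growth factor of macrophages, was at 186, 251 and 137 CPM in suffixes 1 to 3, 50.8, 70.7 and 87.4 in 4 to 6, 64.7, 24.3 and 62.0 in 7 to 9 and 187, 122 and 190 in 10 to 12. The middle runs lay below the other 2, by 1.59 (SE 0.33, edgeR adjusted p = 0.00423) and 2.12 (SE 0.32, adjusted p = 0.000751) on the log2 scale, and it was the 1 of 9 cytokine and growth factor genes that fell in either (list medians -0.24 and 0.24). *Il1rl1*, the receptor of interleukin-33, was at 0, 2.17 and 7.34 CPM in the first run, 79.8, 41.8 and 110 in the second, 77.3, 114 and 159 in the third and 3.62, 4.73 and 3.40 in the fourth. It was close to absent in the outer runs and rose by 4.63 (SE 0.62) and 5.22 (SE 0.56) in the middle ones. *Il6* did not pass in any run, with means of 157, 169, 78.8 and 157 CPM.

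Acute-phase genes rose in the same runs. Of 5 tested, 3 rose in suffixes 4 to 6 (median 2.40), 2 in 7 to 9 (median 1.94) and 0 in 10 to 12 (median 0.95). *Hp*, haptoglobin, which binds free haemoglobin, was at 7.17, 4.33 and 12.2 CPM in the first run, 406, 83.6 and 166 in the second, 526, 855 and 1165 in the third and 15.7, 41.6 and 52.1 in the fourth. It rose by 4.67 (SE 0.66, edgeR adjusted p = 0.000266) and 6.63 (SE 0.61, adjusted p = 8.7e-06) in the middle runs. *Saa3*, a serum amyloid made in inflamed tissue, had 2 UMIs in suffixes 1 to 3 and 91 and 140 in the middle runs. Its pooled ratio was 88.7 (95% counting interval 23.9 to 743) in 4 to 6, where 1 cell held 55% of the UMIs, and 83.0 (22.6 to 692) in 7 to 9. The third gene of the list that rose in 4 to 6 was *Il1r1*, the receptor of interleukin-1 (2.40, SE 0.59), though not without rest 1 (2.24, edgeR adjusted p = 0.0719) or peak 2 (1.97, adjusted p = 0.0847). No complement gene rose: of 6, 1 fell in 4 to 6 and 2 in 7 to 9 (median -0.72 in both).

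Part of the glycolysis genes rose in suffixes 4 to 6. Of 15 tested, 6 rose and 0 fell there (median 0.79), 0 passed in 7 to 9 (median 0.14), and 1, *Hk2*, rose in 10 to 12 (median 0.09). *Pkm*, pyruvate kinase, was at 519, 691 and 590 CPM in suffixes 1 to 3, 1371, 1158 and 1399 in 4 to 6, 840, 817 and 895 in 7 to 9 and 720, 466 and 511 in 10 to 12. The second run lay above all others (1.01, SE 0.16, edgeR adjusted p = 0.000663). *Gapdh* (0.84, SE 0.15), *Ldha*, lactate dehydrogenase (0.79, SE 0.14), *Pgam1* (0.90, SE 0.15) and the lactate exporter *Slc16a1* (1.99, SE 0.34) rose as well, and so did *Eno1*, enolase, at 1.25 (SE 0.21). In cells with at least 3 markers *Eno1* stood at -0.01, where resolved 1 was the only library left in suffixes 4 to 6. *Hk2* did not share this pattern. It was at 98.9, 95.4 and 105 CPM in suffixes 1 to 3, 97.9, 74.0 and 92.0 in 4 to 6, 102, 77.8 and 102 in 7 to 9 and 162, 163 and 187 in 10 to 12. The fourth run lay above all others (0.78, SE 0.15, adjusted p = 0.0409), but the call was lost on leaving out any library except resolved 2 (adjusted p 0.0537 to 0.214) and without the vascular-marked cells (0.70, adjusted p = 0.056), and after thinning to 2000 UMIs the difference was 0.09 (adjusted p = 0.966). In other fibroblasts *Hk2* averaged 151, 182, 117 and 284 CPM over the runs.

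Some immediate early genes, a class that also responds to the digestion of tissue, were lower in suffixes 4 to 6. Of 21 tested, 1 rose and 7 fell there (median -0.39), 2 fell in 7 to 9 (median -0.18), and 1 fell in 10 to 12 (median 0.34). *Myc* was at 178, 150 and 144 CPM in suffixes 1 to 3, 39.9, 35.4 and 36.8 in 4 to 6, 71.0, 50.3 and 48.7 in 7 to 9 and 106, 168 and 166 in 10 to 12. It fell by 2.19 (SE 0.26, edgeR adjusted p = 7.15e-05) and 1.56 (SE 0.23, adjusted p = 0.000474) in the middle runs. *Hspa1a*, a heat-shock chaperone, was at 4938, 5698 and 3922 CPM in the first run and 1835, 1897 and 1532 in suffixes 4 to 6 (-1.57, SE 0.20). These genes moved beside the others above, and their part in those results was not tested.

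Few of the remaining lists moved as a group. Of 11 NF-kB feedback genes, 2 fell in suffixes 4 to 6 and in 7 to 9, and 1 rose in 10 to 12 (medians 0.19, -0.06 and 0.28). Of 15 cell cycle genes, 2 rose in 4 to 6 (median 1.58) and 0 passed later. Of 7 interferon-induced genes 1 rose and 1 fell in 4 to 6, and 0 passed elsewhere. Of 14 phagocytic clearance genes, 3 fell in 4 to 6, and of 14 adhesion and junction genes 2 rose and 2 fell in 4 to 6, *Itga6* of the rule among the latter, and 1 fell in 7 to 9. *Gja1*, the gap junction protein connexin 43, was one that rose (178, 121 and 132 against 446, 322 and 350 CPM; 1.25, SE 0.18). Of 8 BMP genes 2 rose in 4 to 6 and 1 in 7 to 9, and of 6 Wnt antagonists and R-spondins 2 rose in each, with 1 falling in 7 to 9. The one that fell was *Rspo3*, an enhancer of Wnt signaling, at 45.9, 60.7 and 53.9 CPM in the first run and 4.18, 6.49 and 13.3 in 7 to 9 (-3.00, SE 0.49). Of 10 genes named by the study, 6 rose in 4 to 6, 5 in 7 to 9 and 3 in 10 to 12 (medians 2.16, 2.03 and 0.74), and since the study chose them on these samples their direction is not independent evidence. Of 8 further lining genes, *Il1rl1* rose in both middle runs and *Has1* fell in 7 to 9. The glucocorticoid and prostaglandin list (6 genes) and the Notch list (2 genes) had 0 that passed in these comparisons, and 2 and 1 in the F-test.

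Genes high in lining over other fibroblasts were among those that fell. *Pla1a* was at 948, 1034 and 935 CPM in suffixes 1 to 3, 192, 170 and 184 in 4 to 6, 361, 149 and 124 in 7 to 9 and 504, 527 and 416 in 10 to 12. All 9 later libraries lay below the first 3, by 2.52 (SE 0.29, edgeR adjusted p = 4.79e-05) in suffixes 4 to 6 and 2.26 (SE 0.27, adjusted p = 8.96e-05) in 7 to 9. *Aldh1a3*, an enzyme of retinoic acid synthesis, was at 292, 336 and 242 CPM in the first run and 130, 64.9 and 102 in 7 to 9 (-1.68, SE 0.23). *Scg5*, a chaperone of proprotein convertases, was at 66.0, 71.5 and 34.3 CPM in the first run and 6.27, 3.24 and 0 in 7 to 9 (-3.97, SE 0.48). By contrast *Col22a1* (means of 346, 351, 498 and 468 CPM), *Hbegf* (1752, 1680, 1412 and 2074) and *Cd55* (455, 384, 428 and 485) did not pass in any run. A longer list held 8 sublining markers, of which 5 were tested. Of these 3 rose and 1 fell in suffixes 4 to 6 (median 1.76) and in 7 to 9 (median 1.97), and 0 passed in 10 to 12 (median 0.81). After thinning, 0 rose and 1 fell in 4 to 6 (median -0.50). *Clec3b*, the one that fell, was at 158, 249 and 311 CPM in the first run and 54.4, 48.2 and 36.8 in 4 to 6, and *Thy1* rose by 2.76 (SE 0.68) in 4 to 6. Its call was lost without rest 2 (2.59, edgeR adjusted p = 0.0662) or peak 2 (2.21, adjusted p = 0.0775). In cells with at least 3 markers *Thy1* stood at -4.10, where resolved 1 was the only library left in 4 to 6.

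**Figure D4:**
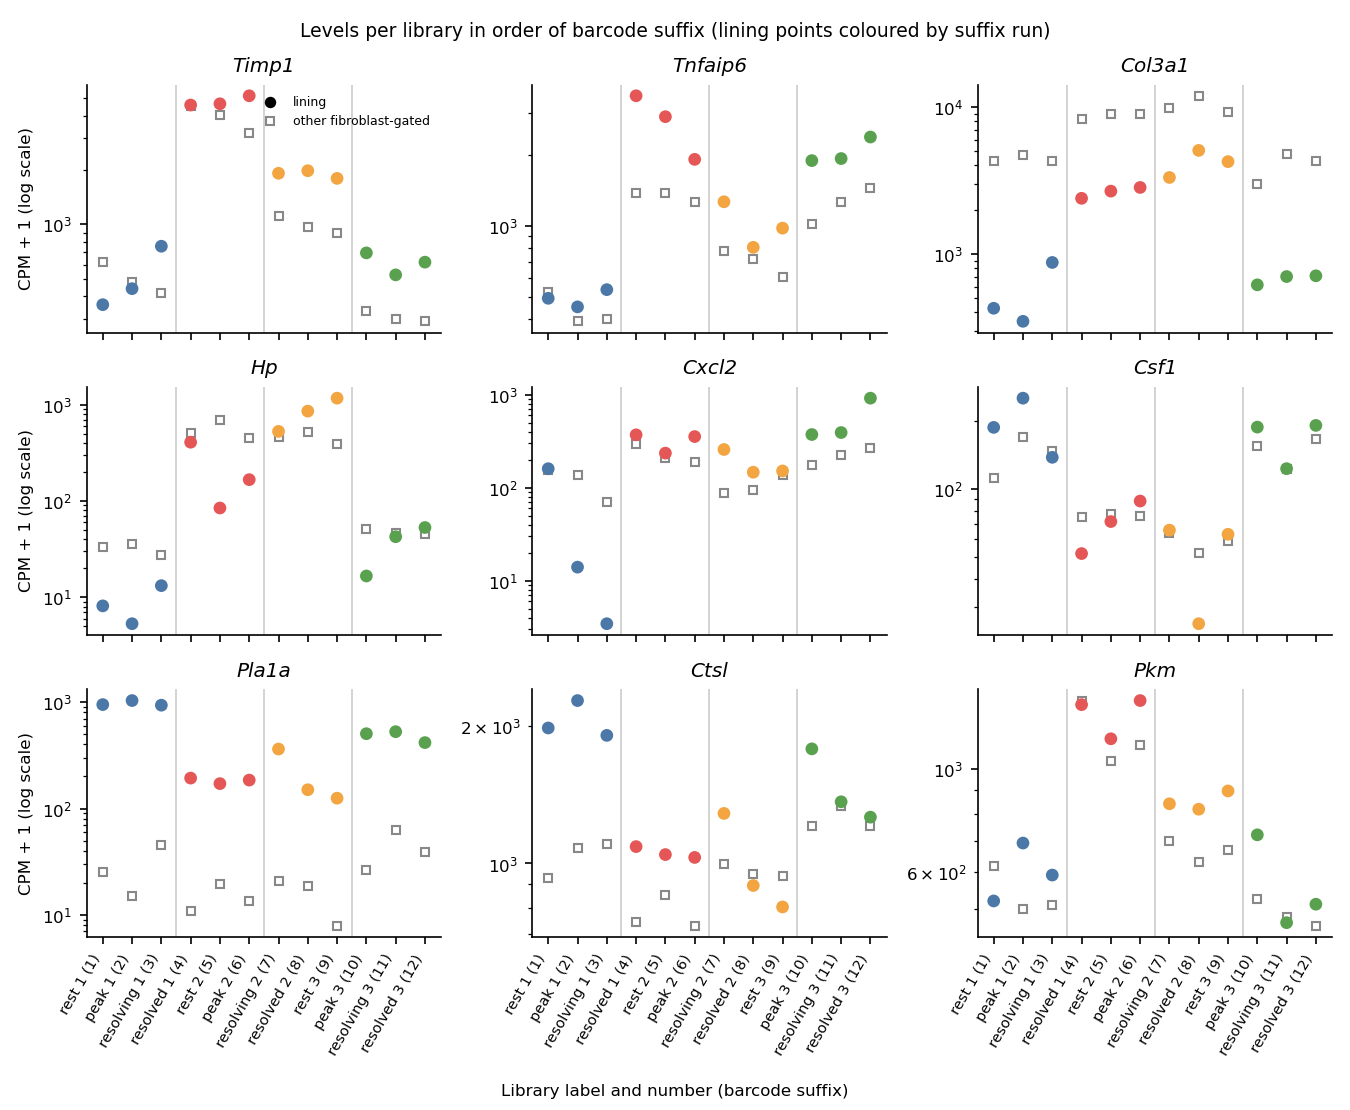
Levels in the summed lining cells of each library (CPM with 1 CPM added, log scale) for 9 genes, in order of barcode suffix and coloured by run. Labels are on the axis, and open grey squares give the other fibroblasts. *Timp1*, *Tnfaip6*, *Col3a1* and *Hp* sit higher and *Csf1*, *Pla1a* and *Ctsl* lower in suffixes 4 to 6 than in 1 to 3, and each run holds libraries of 3 labels.

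In suffixes 10 to 12 a small set differed. *Ednrb*, an endothelin receptor, was at 66.0, 65.0 and 56.3 CPM in suffixes 1 to 3 and 10.8, 13.2 and 13.6 in 10 to 12, and between 10.4 and 32.1 in the runs between (-2.29, SE 0.30, edgeR adjusted p = 0.00217). *Rcan1*, a regulator of calcineurin, was at 324, 288 and 203 CPM in the first run and 634, 603 and 673 in the fourth (1.22, SE 0.18, adjusted p = 0.00387). *Myoc*, the secreted glycoprotein myocilin, rose by 2.80 (SE 0.36), from 21.5, 34.7 and 78.3 to 372, 282 and 222 CPM. In other fibroblasts *Myoc* averaged 1944, 237, 381 and 2402 CPM over the runs.

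Markers of other cells moved with the runs as well. Over the lining cells, the summed level of 7 endothelial genes was 13 to 168 CPM in suffixes 1 to 3, 212 to 675 in 4 to 6, 39.9 to 699 in 7 to 9 and 23.8 to 199 in 10 to 12, and of the 6 tested 1 rose in 4 to 6. The 7 perivascular genes summed to 203 to 453, 381 to 1116, 350 to 1164 and 352 to 406 CPM, and of the 5 tested 2 rose in 4 to 6 and 1 in 7 to 9. Without the vascular-marked cells 1 rose and 1 fell in 4 to 6. *Acta2*, smooth muscle actin, was at 582 CPM in rest 2 and 389 in resolved 2 but at most 58.0 in every other library, and 1 cell held 63% and 77% of its UMIs in the 2 middle runs. Chondrocyte genes summed to 301 to 1011, 129 to 236, 257 to 285 and 344 to 1108 CPM, and 1 fell in 4 to 6 and in 10 to 12. Of 4 osteoblast genes 1 fell in each of the middle runs, of 3 tenocyte genes 1 rose in each of the 3 comparisons, 1 Schwann gene fell in the middle runs, and the erythroid and muscle genes had 0 that passed in these comparisons. In the F-test across the 4 runs all 4 erythroid genes and 1 of 2 muscle genes passed. The 5 erythroid genes summed to 167 to 242 CPM in suffixes 1 to 3 and 387 to 9681 in 10 to 12. Without the 45 vascular-marked cells, 608, 418 and 26 genes passed in the 3 comparisons and 846 in the F-test.

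The counts depended on which cells and libraries were summed. Thinned to 2000 UMIs per cell after the rule, 198, 154 and 17 genes passed in the 3 comparisons. Only 1678 genes were tested there, against 5783 above, so these counts are out of fewer genes. With at least 3 of the 4 markers, the libraries of suffixes 4 to 6 kept only 10, 7 and 9 cells. Libraries with fewer than 10 cells were left out of that fit. Suffixes 4 to 6 then rested on resolved 1 alone, and no count is given for them. In 7 to 9, where rest 3 (8 cells) was left out, 100 genes passed, and 14 passed in 10 to 12. Under the rule as stated, without rest 2 or rest 1, 386 or 451 genes passed in 4 to 6. Without resolved 2 or rest 1, 207 or 235 passed in 7 to 9. In 10 to 12 the count ran from 10 (without peak 1 or resolving 3) to 28. Scaled to total counts, which shifts the median of all genes to 0.118 and 0.0967, 540 rose and 288 fell in 4 to 6 (65.2% higher against 49.2%) and 320 and 133 in 7 to 9 (70.6% against 56.5%).

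Some genes differed between runs in lining cells otherwise than in the other fibroblasts. An interaction of run and cell set passed for 366 of 12159 genes (3.01%). Without the vascular-marked cells 461 passed, of which 305 were among the 366. On simulated counts this test made more false calls than nominal. Genes of other cell types also moved with the runs in the other fibroblasts. Their chondrocyte genes summed to 9705 to 14720 CPM in suffixes 1 to 3 and 1570 to 2285 in 4 to 6. Osteoblast genes summed to 4737 to 9317 and 1305 to 1842 CPM, and perivascular genes, which rose, to 93.1 to 201 and 239.5 to 424. The part of such RNA in the interaction was not tested. In *Fn1* the lining averaged 10980, 5702, 9120 and 15750 CPM over the 4 runs in suffix order, and other fibroblasts 1435, 1918, 2854 and 1765, so the ratio of the sets was smallest in suffixes 4 to 6 (edgeR adjusted p = 1.11e-07). *Dmkn*, a secreted protein known from skin, was at 11.5, 209, 109 and 19.4 CPM in lining cells and at 17.5 to 36.6 in other fibroblasts (adjusted p = 1.7e-07). *Fbln5*, an elastic fibre protein, was at 408, 112, 149 and 442 CPM in lining cells and between 85.4 and 119 in the others (adjusted p = 2.56e-06). *Bnip3*, a mitochondrial protein induced by low oxygen, was at 112, 26.3, 53.8 and 100.3 CPM in lining cells and at 52.3 to 71.6 elsewhere (adjusted p = 6.77e-06). *Cyp1b1*, a cytochrome that metabolises retinoids and steroids, was at 296, 143, 142 and 241 CPM against 14.9, 56.9, 28.2 and 18.3 (adjusted p = 1.45e-06). For *Gja1* the sets moved in opposite directions from the first run to the second, 144 to 372 CPM in lining cells and 424 to 298 in others (adjusted p = 1.28e-05). That call did not pass against sublining-gated cells alone. Of the 19 genes named for the interaction here and below, 16 passed against those cells and 3, *Gja1* among them, did not. Against sublining-gated cells 471 genes passed, of which 233 were among the 366.

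**Figure D5:**
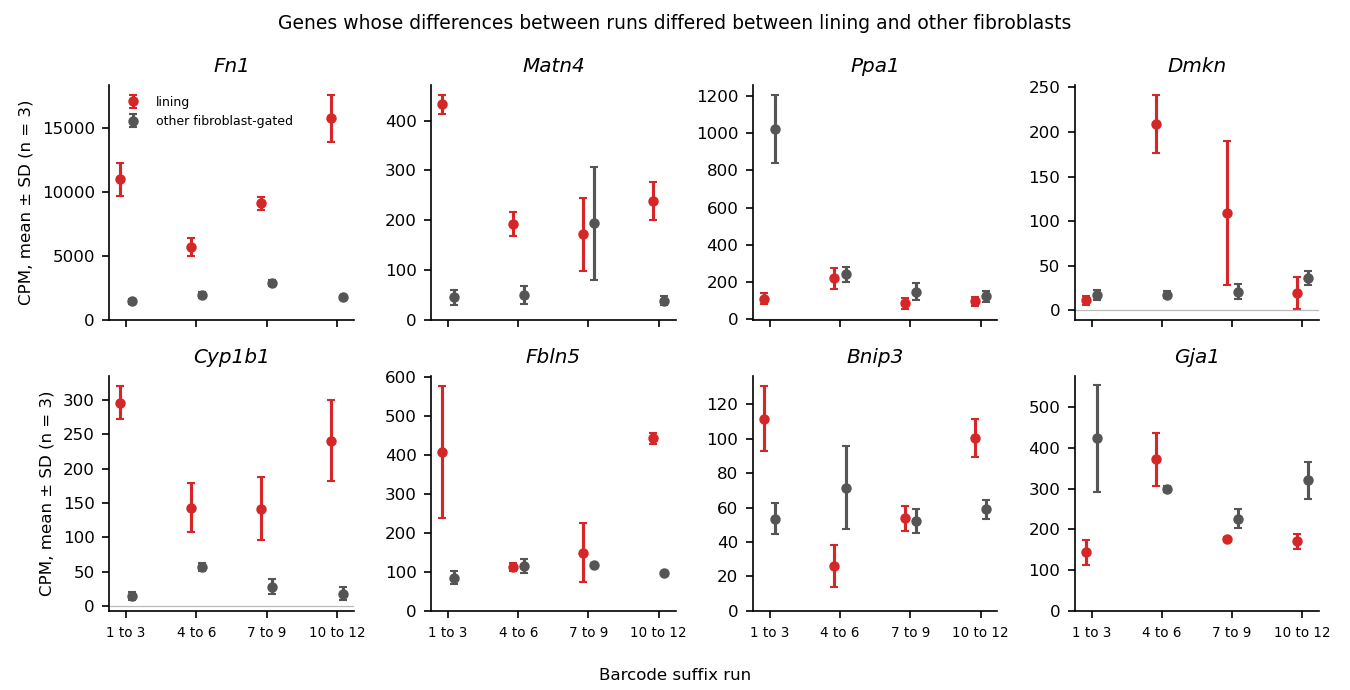
Mean and SD over 3 libraries of the level (CPM) of 8 genes in lining cells and in other fibroblasts, by run of suffixes. *Fn1* and *Fbln5* are high in lining cells and lowest there in suffixes 4 to 6, while *Dmkn* reaches 209 CPM in lining cells of that run and stays at or below 36.6 in other fibroblasts.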

How the data were processed

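Per the labels and the study's methods, cells were run on 10x 3′ version 2 chemistry, sequenced on an Illumina HiSeq instrument and counted by the authors with Cell Ranger 2.1.1 against mm10. The deposited values were whole-number UMI counts of 27998 genes per cell. The median was 5358 UMIs per cell in every library, and the step behind that was not given in the sources used here. The lining rule was applied to these counts, and UMIs were summed per library over the lining cells, the other fibroblasts, sublining-gated cells (at least 3 of 5 sublining markers) and endothelial cells (at least 3 of 6 markers).

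Sums were tested with edgeR 4.0.16 (TMM factors, filterByExpr, quasi-likelihood test, Benjamini-Hochberg) in R 4.3.3, with labels and runs fitted apart over all 12 libraries; interactions were fitted over both cell sets. A gene was called at an adjusted p below 0.05 and a log2 fold change beyond 0.5; F-tests and interactions used the adjusted p only. SEs were derived from the fold change and its F. Shares were compared with exact permutation tests. On simulated counts the run comparisons kept their error rate, whereas the run interaction made more false calls than nominal. DESeq2 1.42.0, size factors, low-count filters, stricter rules, thinning, other scaling and left-out libraries or cells were alternatives.

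Cells share an animal pool, doublets were not called, and no count of other samples was used. Intervals cover counting error only. The cells, the split by run and the 35 gene lists (1 of them from the study) were chosen with earlier results of these data known. Genes were named from those of the rule, those the study names, up to 4 members of a list with the lowest p and up to 3 with the highest level, the 10 highest and 10 lowest lining ratios, and the 10 lowest p-values per direction of a comparison, without unnamed gene models, haemoglobin and immunoglobulin genes. A choice among them, and a few other list members described beside a count, was made after their values were seen. Lists are described by counts and medians. Same-numbered libraries deviated together in part, but in no comparison with rest did every pair (correlations -0.235 to 0.442), so replicate numbers were not used as pairs.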

Additional observations from a re-analysis of the deposited data

Results flagged for a closer look

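On simulated counts the interaction of run and cell set made more false calls than nominal. Levels of chondrocyte and osteoblast genes in the other fibroblasts moved with the runs, as given above. By the interaction test, run differences differed between lining and other fibroblasts for 366 of 12159 genes. Of these, 15 of the 17 named genes with the lowest p-values are given with the edgeR adjusted p of the interaction and the lining and other means over the runs in suffix order. Not given are *Prg4* (rank 10), which chose the cells, and *Igfbp6* (rank 14). *Fn1* (1.11e-07) was described above. *Matn4*, a matrix adaptor, fell in lining cells (433, 193, 172 and 239 CPM) and peaked at 194 CPM in suffixes 7 to 9 in the others (1.11e-07). *Ppa1*, a pyrophosphatase (1.33e-07), and *Fxyd2*, a subunit of the sodium pump (1.83e-07), were high in other fibroblasts of suffixes 1 to 3, at 1021 and 330 CPM, and at 111 and 12.4 CPM in lining cells. *Dmkn* (1.7e-07), *Cyp1b1* (1.45e-06), *Fbln5* (2.56e-06), *Bnip3* (6.77e-06) and *Gja1* (1.28e-05) are given above. *Igfbp4*, a binding protein of insulin-like growth factors, was at 775, 870, 1297 and 1183 CPM in lining cells and 616, 1794, 2213 and 764 in others (1.45e-06). *Syngr2*, a vesicle protein, was at 177, 140, 116 and 154 CPM against 33.2, 83.3, 57.4 and 35.3 (4.62e-06). *Aebp1*, a collagen-binding protein, was at 768, 393, 593 and 449 CPM against 513, 800, 1145 and 779 (7.32e-06). *Tgfbi*, an adhesion protein induced by TGF-beta, was at 92.8, 324, 428 and 129 CPM against 483, 474, 551 and 660 (8.34e-06). *Cd34* was at 47.7, 174, 202 and 114 CPM against 532, 177, 274 and 542 (1.28e-05), and *Prdx2*, a peroxidase, at 539, 524, 657 and 554 against 233, 429, 414 and 202 (2.1e-05).

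Among genes of the run comparisons, the interaction also passed for *Col3a1* (0.000208), *Il1rl1* (0.000509), *Ctsl* (0.00253) and *Timp1* (0.0246). *Timp1* averaged 504, 3940, 993 and 306 CPM in other fibroblasts. Its edgeR adjusted p was 0.0509 to 0.0719 without rest 2, rest 3, peak 1 or resolved 1, 0.0608 with DESeq2's size factors and 0.156 by DESeq2.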

How the results depend on the processing

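Leaving out each library in turn moved the difference in lining share from rest between -0.440 and 0.635 percentage points at peak, 0.779 and 3.05 at resolving and 0.145 and 2.29 at resolved. At peak it was negative without rest 2 (-0.440), peak 1 (-0.212) or peak 3 (-0.375) and as a share of all cells (-0.0546), where the exact permutation p was 0.9. With the replicate number as a block the differences were 0.0159, 2.12 and 1.5 points and 0 genes passed at each label, as with the run as a block. Genes called against rest stayed at 0 to 0 without any 1 library, and the interactions with label at 0 to 1, 0 to 0 and 0 to 1. Over left-out libraries, 386 to 769 genes passed in suffixes 4 to 6, 207 to 408 in 7 to 9, 10 to 28 in 10 to 12, 659 to 922 in the F-test and 287 to 498 in the run interaction.

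With no filter on low counts 13, 25 and 6 genes passed at peak, resolving and resolved, 642 in suffixes 7 to 9, 147 in 10 to 12, 22, 41 and 23 in the label interactions and 863 in the run interaction. With at least 3 markers 8, 100 and 14 passed in the 3 run comparisons, 114 in the F-test, 11, 22 and 38 in the label interactions and 577 in the run interaction. Libraries with fewer than 10 cells were left out there, namely rest 2 (7 cells), rest 3 (8 cells) and peak 2 (9 cells). Rest 1 was then the only rest library, so the label interactions compared each label with rest 1 alone. Their counts cannot tell a label from that library and are not read as label effects. The run tests and run interaction had resolved 1 alone in 4 to 6. In 4 to 6 the rule of at least 3 markers turned *Cxcl2* (-1.19), *Socs3* (0.15), *Eno1* (-0.0056) and *Thy1* (-4.10). DESeq2 called 42 in 10 to 12. The alternatives chosen after seeing the data gave 308, 227, 8 and 432 (F-test) without cells with other markers. After thinning they gave 198, 154 and 279 (F-test), out of only 1678 genes tested. The causes were not tested. Thinning before the rule left too few cells for a test of genes. Of named values, 150 of 156 kept direction and side of the threshold without vascular-marked cells. Without cells with other markers 99 of 131 did, and with thinning to 2000 UMIs after the rule 85 of 107 did. With at least 3 markers most did not, and those of 4 to 6 there rested on resolved 1 alone. Lining sums of 217372 UMIs limit low genes most.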
